A study of Mus musculus with 8 samples.

Results

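Matricellular glycoproteins are secreted into the extracellular matrix, where they act on cells as much as they build structure. The 10 genes described here are the tenascin genes Tnc and Tnxb, the thrombospondin genes Thbs1 and Thbs2, Postn (periostin), Sparc (osteonectin), Spp1 (osteopontin), Tgfbi, Fbln1 (fibulin 1) and Mfap4. They were taken by gene name from a table of 35275 genes, each name matched 1 entry, and all 10 passed the filter on low counts. RNA sequencing of bulk tissue was used to measure 8 mouse tumours.

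In all 8 tumours, floxed Nf2 and Cdkn2a alleles were recombined by Cre from an adenovirus given into the peritoneum, so both tumour groups lack Nf2 and Cdkn2a by label. Primary peritoneal tumours 19, 20 and 127 were Pak2 wild-type, and primary tumours 13, 14A, 59 and 61 carried floxed Pak2 and are labelled Pak2-/-, called Pak2-null below. Tumour 14B has the same genotype label and is a secondary tumour, with no other of its kind. The labels give no strain, age, interval after injection or promoter for Cre. They do not say whether tumours came from separate animals, so p-values measure the spread between these samples, which may not be that between animals. The comparison asks how peritoneal tumours of the 2 Pak2 genotypes differ in their transcripts.

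In connective tissue, Sparc binds collagen and regulates its assembly, and periostin helps cross-link collagen into fibrils. Tenascin C, thrombospondins and osteopontin are made at low levels in most resting adult tissues and in larger amounts during wound repair, inflammation and in tumour stroma, where they signal through integrins and other receptors. Tenascin X, fibulin 1 and Mfap4 are instead components of settled collagen and elastic fibre networks. These roles are background and were not measured here.

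Library totals ran from 13469851 to 20402401 counts. Pak2 itself stood at 90.1 to 128 CPM, that is counts put on a common library size, in the wild-type tumours and 131 to 238 CPM in the Pak2-null primaries, so its transcript count did not mark the deletion, and whether a floxed exon is missing cannot be read from counts per gene. Nf2 and Cdkn2a are deleted by label in both groups, so no tumour here could serve as an undeleted reference for their counts. Nf2 stood at 104 to 142 CPM in the wild-type tumours and 74.6 to 118 CPM in the Pak2-null primaries, and Cdkn2a at 2.37 to 6.43 CPM over the 8 tumours. Tumours 19 and 20 had Xist at 151 and 459 CPM and little Ddx3y (1.62 and 1.24 CPM), the female pattern. Tumour 127 had Xist at 26.6 CPM and Ddx3y at 116 CPM, and the Pak2-null primaries had Ddx3y at 85.4 to 104 CPM with Xist at 1.33 CPM or less. Apart from tumour 127, sex and genotype cannot be told apart. Mesothelial markers summed to 97.3 to 450 CPM over the 8 tumours. The members of that list differed: Calb2 and Muc16 reached at most 6 and 12 counts. Msln ran from 1.11 to 132 CPM, Pdpn from 20.9 to 283 CPM and Wt1 from 1.99 to 18.3 CPM.

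Tissue content differed between tumours along with the glycoproteins. Skeletal muscle markers (12 genes) summed to 3146, 34665 and 25914 CPM in tumours 19, 20 and 127 and to 23.0 to 861 CPM in the Pak2-null primaries. Exocrine pancreas genes (10, a list added after the data were seen) summed to 35660 CPM in tumour 14A and 257234 CPM in tumour 14B, against 5.37 to 81.6 CPM in the other 6. Only 3 of these 10 genes passed the low-count filter. CPM was scaled by counts of genes that passed it, so these sums are not shares of the library. Macrophage markers (11) had their highest sums in the same pair, at 10107 and 9409 CPM against 1796 to 5528 CPM elsewhere. The members of that list did not move together: C1qa, C1qb and C1qc stood at 2259, 2973 and 2031 CPM in tumour 14A, whereas Mrc1 and Cd163, at 48.8 and 11.9 CPM, were lower there than in any other tumour, and Csf1r and Lyz2 were highest in tumours 13 and 19. Lymphocyte markers (9, also added later) had their highest sums in the pair too, at 2258 and 1653 CPM against 83.7 to 321 CPM. Fibrillar matrix genes (17, collagens and other matrix genes such as Fn1) were lowest there, at 5424 and 14113 CPM against 32884 to 78770 CPM. The part of this tissue content in the results that follow was not tested, and in bulk tissue fewer cells of a type and less RNA per cell cannot be told apart.

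**Figure D1:**
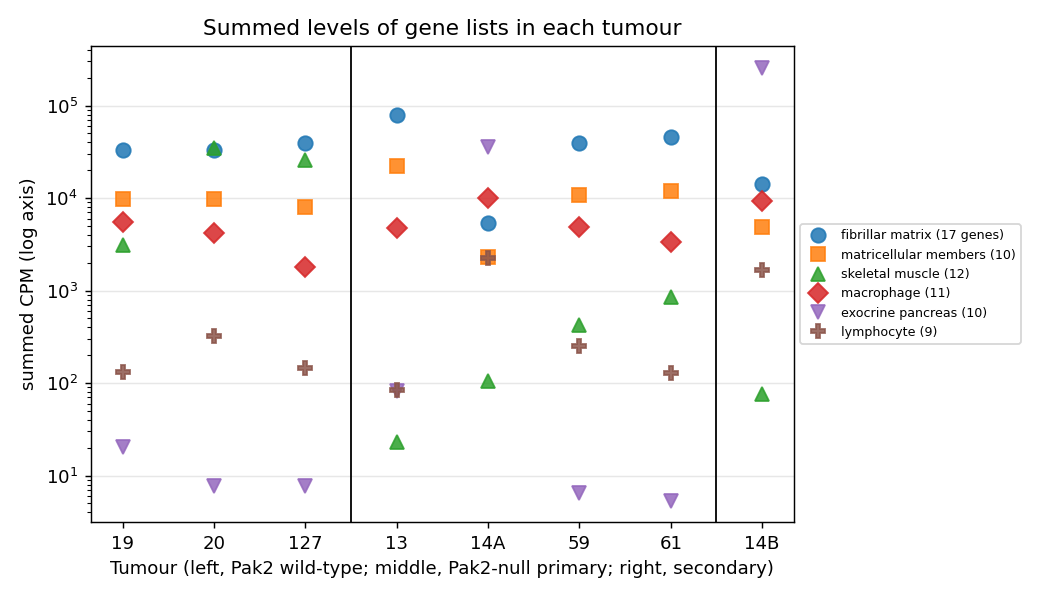
Summed CPM (log axis) of 6 gene lists in each of the 8 tumours, 1 symbol per list. Tumours 14A and 14B had the highest exocrine pancreas, macrophage and lymphocyte sums and the lowest fibrillar matrix and matricellular sums, and tumours 20 and 127 the highest skeletal muscle sums.

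Per length of transcript (TPM, counts scaled by the gene lengths in the deposited table and then by library), Sparc was the most abundant glycoprotein transcript, with a median of 4961 TPM over the 8 tumours and a range of 467 to 7973. It was above Postn in 8 of 8 tumours and ranked first among the 10 in 7 of them, tumour 14A being the exception, where Tgfbi ranked first at 735 TPM. Postn, Tgfbi and Spp1 followed with medians of 605, 513 and 502 TPM, but the order of medians did not hold within tumours. Postn was above Tgfbi in 5 of 8 tumours, and Tgfbi, despite its higher median, was above Spp1 in only 1 of 8. Among the 10, Spp1 kept rank 2 or 3 in every tumour, whereas Postn ranged from rank 2 to 4 and Tgfbi from rank 1 to 8. Spp1 was above Thbs1 in 8 of 8 tumours. Thbs1, Thbs2, Fbln1, Tnc and Mfap4 had medians of 241, 201, 146, 141 and 118 TPM, and each was above the next in 4 to 6 of the 8 tumours, so these neighbours did not separate. Tnxb was the least abundant, with a median of 7.54 TPM and a highest value of 20.4 TPM in tumour 13.

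Between the genotypes, differences in all 10 members fell short of the test. In the wild-type against Pak2-null comparison 0 of 10 members passed at an adjusted p of 0.05 (edgeR quasi-likelihood, adjusted by Benjamini-Hochberg, BH, over all 15412 genes tested). Of all genes 11 passed (0.0714%), 3 higher (0.0195%) and 8 lower (0.0519%). At unadjusted p under 0.05 there were 0 of 10 members by edgeR, beside 12.9% of all genes, 2 by DESeq2, beside 17.6%, and 1 by limma-voom, beside 12.2%. After BH adjustment 0 members passed by DESeq2, which called 7.71% of all genes, or by limma-voom, which called 0.162%. Fitted means were higher in the Pak2-null tumours for 6 members and lower for 4, with a median log2 fold change (Pak2-null minus wild-type) of 0.17, beside 0.06 over all tested genes. The groups overlapped for every member except Mfap4, that is 1 of 10 not overlapping, beside 14.0% of all tested genes. The count over all genes itself rested on few tumours: leaving out tumour 19 gave 59 genes, leaving out 127 gave 1, leaving out 14A gave 8, and leaving out 20, 13, 59 or 61 gave 0.

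**Figure D2:**
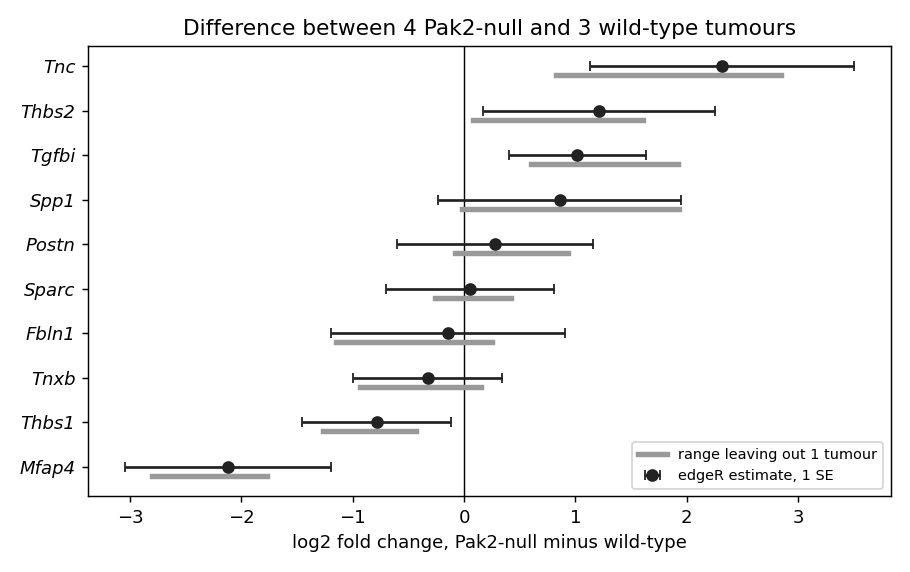
Log2 fold change of each member between 4 Pak2-null and 3 wild-type primary tumours (points, with bars of 1 SE), and in grey the range when 1 tumour at a time was left out. Estimates ran from -2.12 for Mfap4 to 2.32 for Tnc, and the grey range crosses 0 for Postn, Sparc, Spp1, Fbln1 and Tnxb.

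Across the 7 primary tumours, both genotypes together, the standard deviation of log2 CPM was above that of the median gene for all 10 members, from 1.0006 for Tnxb to 2.08 for Mfap4, with a median of 1.501 beside 0.59 over all tested genes. The highest tumour exceeded the lowest 48.7-fold for Thbs2, 46.4-fold for Fbln1, 38.7-fold for Tnc and 38.2-fold for Mfap4, and 6.42-fold for Tnxb. Within the wild-type tumours that standard deviation ran from 0.08 for Sparc to 1.24 for Spp1, and within the Pak2-null primaries from 0.54 for Tgfbi to 2.46 for Fbln1. It was larger in the Pak2-null group for 9 of 10 members, and for 8 of 10 without tumour 14A. This difference in spread was not tested. The share of all tested genes with a larger spread in the Pak2-null group was not counted. Tumour 14A was the lowest of the 7 primaries for 8 of 10 members, beside 24.6% of all tested genes; the exceptions were Tnxb and Tgfbi. Tumour 13 was the highest of the 7 primaries for 6 of 10 members: Tnc, Tnxb, Thbs2, Postn, Sparc and Spp1. The share of all tested genes highest in tumour 13 was not counted, so this describes the members only.

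**Figure D3:**
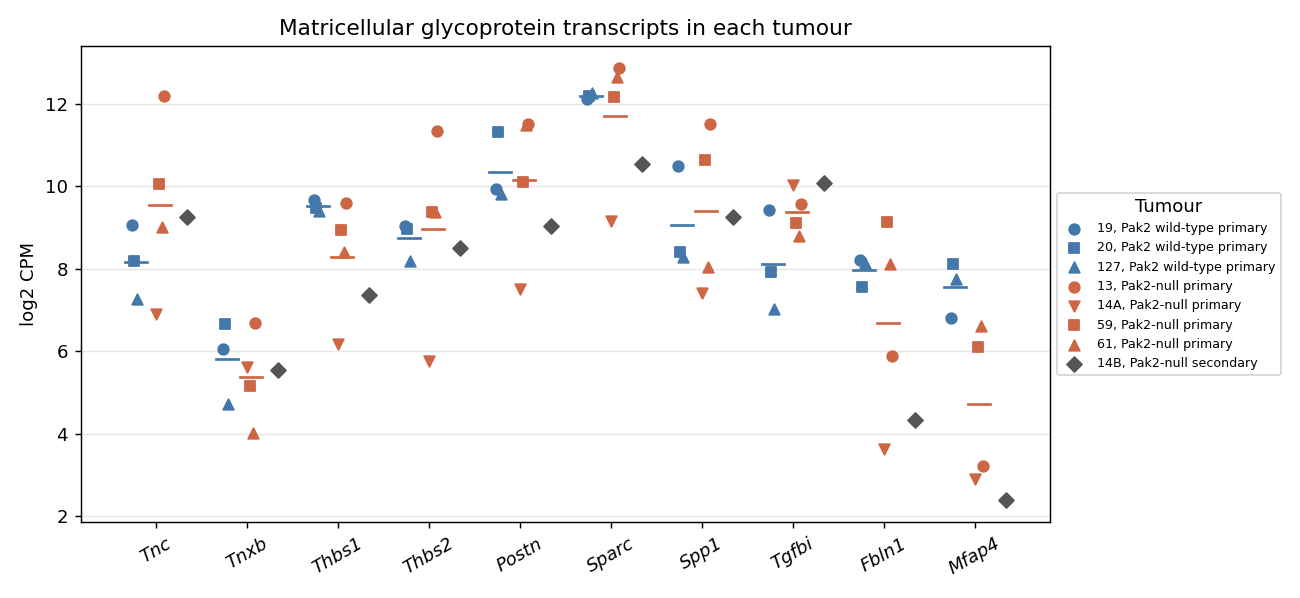
Log2 CPM of each member in each tumour, with a bar for the mean of each primary group. Levels of different genes are not scaled for length here; for Sparc and Thbs1 the 3 wild-type tumours lie close together while the Pak2-null tumours spread, and for Mfap4 the primary groups do not overlap.

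Upstream sequence was available for 8 of the 10 genes. Shown here are the 250 bases before the RefSeq start site (GRCm38.p6) of Tnc, Thbs2, Postn and Spp1, which were chosen because they hold TATAAA, the letters of a TATA box, and were highest of the primaries in tumour 13 and lowest in tumour 14A, and of Tgfbi, which was highest in tumour 14A. Sparc had the same high and low tumours as those 4 and does not hold TATAAA in its window. They are written 5′ to 3′ on the gene's strand, with the matches to the motifs named below in capitals.
Tnc, chr4:64047016-64047265, minus strand: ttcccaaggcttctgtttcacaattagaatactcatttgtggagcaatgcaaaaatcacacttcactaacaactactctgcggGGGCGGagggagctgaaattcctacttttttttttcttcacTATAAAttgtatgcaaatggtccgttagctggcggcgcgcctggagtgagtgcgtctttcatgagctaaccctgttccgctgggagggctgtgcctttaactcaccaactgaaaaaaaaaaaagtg
Thbs2, chr17:14694263-14694512, minus strand: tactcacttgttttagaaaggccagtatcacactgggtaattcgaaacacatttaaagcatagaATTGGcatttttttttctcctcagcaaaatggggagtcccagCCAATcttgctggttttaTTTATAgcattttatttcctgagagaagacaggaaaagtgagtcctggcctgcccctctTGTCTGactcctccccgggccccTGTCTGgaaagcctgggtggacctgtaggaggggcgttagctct
Postn, chr3:54360857-54361106, plus strand: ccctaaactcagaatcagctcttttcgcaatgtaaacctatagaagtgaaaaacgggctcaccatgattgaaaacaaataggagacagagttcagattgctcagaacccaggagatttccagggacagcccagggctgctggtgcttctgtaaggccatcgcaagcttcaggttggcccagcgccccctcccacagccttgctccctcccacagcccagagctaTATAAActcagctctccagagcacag
Spp1, chr5:104434861-104435110, plus strand: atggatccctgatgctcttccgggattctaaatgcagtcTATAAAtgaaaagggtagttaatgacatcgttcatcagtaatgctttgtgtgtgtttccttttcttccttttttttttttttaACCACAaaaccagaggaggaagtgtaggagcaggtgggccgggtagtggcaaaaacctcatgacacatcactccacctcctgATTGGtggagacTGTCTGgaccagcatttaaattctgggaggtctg
Tgfbi, chr13:56609336-56609585, plus strand: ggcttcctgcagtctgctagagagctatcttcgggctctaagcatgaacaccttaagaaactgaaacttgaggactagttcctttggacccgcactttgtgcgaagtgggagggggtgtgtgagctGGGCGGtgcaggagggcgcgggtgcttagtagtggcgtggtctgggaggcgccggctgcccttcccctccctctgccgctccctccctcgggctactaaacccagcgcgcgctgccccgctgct

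Motifs were searched on both strands with N standing for any base, and no matches to different motifs overlapped in these windows. The letters TATAAA were present in 4 of 8 members, the 4 shown for that reason, beside 12.4% of 32851 RefSeq promoter windows of that length. The match lay close to the start, at -26, in Postn only. It lay at -126 in Tnc and Thbs2 (on the opposite strand in Thbs2) and at -211 in Spp1, so by position these are matches to the letters and no more. The SMAD-type sequence CAGACA was present in Thbs2, Sparc, Spp1 and Fbln1 (4 of 8, beside 17.1% of windows). The AP-1 site TGANTCA was present in Tnxb (6.75% of windows), the RUNX core ACCACA in Spp1 (14.0%), the CCAAT box CCAAT in Thbs2 and Spp1 (33.8%) and the GC box GGGCGG in Tnc and Tgfbi (32.7%). The TEAD core GGAATG and the TCF core CTTTGA were in none of the 8 windows (12.6% and 13.8% of all windows). These matches describe letters in the window and show neither binding nor a cause.

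The tenascin genes varied in different ways. Tnc (ENSMUSG00000028364, chromosome 4, 63959785 to 64047015; all gene positions are on GRCm38, as deposited), whose product loosens cell adhesion and is abundant in tumour stroma, had 536 (tumour 19), 291 (20) and 153 CPM (127) among the wild-type tumours. In Pak2-null primaries 13, 14A, 59 and 61 it stood at 4658, 120, 1069 and 520 CPM, and in secondary tumour 14B at 612 CPM. Tumour 13 stood far above all others and tumour 14A below every wild-type tumour, so the groups overlapped. The means were 327 ± 194 CPM (SD, n = 3) and 1592 ± 2081 CPM (SD, n = 4), a log2 fold change of 2.32 (SE 1.19) with a BH-adjusted p of 0.471 (edgeR quasi-likelihood). Without tumour 13 the log2 fold change was 0.82.

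Tnxb (ENSMUSG00000033327, chromosome 17, 34670535 to 34719815), which encodes tenascin X, needed for normal collagen organisation in skin and joints, stood at 66.8, 101 and 26.2 CPM in the wild-type tumours. The Pak2-null primaries had 102, 48.7, 35.5 and 15.9 CPM, and tumour 14B 46.8 CPM. Both groups covered nearly the same range, with means of 64.7 ± 37.5 (SD, n = 3) and 50.6 ± 37.0 CPM (SD, n = 4). The log2 fold change was -0.33 (SE 0.67) with a BH-adjusted p of 0.869 (edgeR quasi-likelihood). The Tnc to Tnxb ratio of CPM was 2.88 to 8.03 in the wild-type tumours, 45.5, 30.1 and 32.6 in tumours 13, 59 and 61, and 2.47 in tumour 14A, so it too overlapped between groups.

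The thrombospondin genes encode paralogous secreted proteins that bind CD36 and CD47 and hold back blood vessel growth, and thrombospondin 1 also activates latent TGF-beta. Thbs1 (ENSMUSG00000040152, chromosome 2, 118111876 to 118127133) had 816 (tumour 19), 711 (20) and 674 CPM (127) among the wild-type tumours, a tight group. It stood at 769, 72.4, 491 and 339 CPM in tumours 13, 14A, 59 and 61, and at 164 CPM in tumour 14B. Of the Pak2-null primaries, 3 lay below every wild-type tumour and tumour 13 lay among them. The means were 734 ± 74.0 (SD, n = 3) and 418 ± 291 CPM (SD, n = 4), a log2 fold change of -0.79 (SE 0.67) with a BH-adjusted p of 0.664 (edgeR quasi-likelihood). Without tumour 14A the log2 fold change was -0.44.

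Thbs2 (ENSMUSG00000023885, chromosome 17, 14665500 to 14694262) stood at 526, 503 and 294 CPM in the wild-type tumours. The Pak2-null primaries had 2615, 53.7, 666 and 663 CPM, and tumour 14B 364 CPM. Tumours 13, 59 and 61 were above every wild-type tumour and tumour 14A was below every one. The log2 fold change was 1.21 (SE 1.04) with a BH-adjusted p of 0.667 (edgeR quasi-likelihood), and was 0.08 without tumour 13 and 1.60 without tumour 14A. The ratio of Thbs2 to Thbs1 CPM measured 0.644, 0.707 and 0.436 in the wild-type tumours 19, 20 and 127 against 3.40, 0.742, 1.36 and 1.96 in tumours 13, 14A, 59 and 61. That ratio, looked at after the values were seen, did not overlap between the groups, with tumour 14A close to tumour 20; 21.8% of all tested genes had a ratio to Thbs1 that did not overlap. In tumour 14B it was 2.22. Of the 45 pairs of members 9 had ratios whose groups did not overlap, among them Tnc to Thbs1 (0.228 to 0.656 against 1.53 to 6.06) and Tgfbi to Thbs1 (0.191 to 0.841 against 0.996 to 14.5). Pairs that share a gene, as these share Thbs1, are not independent. The share over pairs of all tested genes was not counted.

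Sparc and Postn encode proteins of the collagen matrix. Sparc (ENSMUSG00000018593, chromosome 11, 55394500 to 55420080) had 4419 (tumour 19), 4677 (20) and 4959 CPM (127) among the wild-type tumours, and 7551, 574, 4567 and 6470 CPM in tumours 13, 14A, 59 and 61. Tumour 14B had 1493 CPM. The wild-type tumours were nearly equal, and the Pak2-null primaries lay on both sides of them, with tumour 14A 11.3-fold below the median of the other Pak2-null primaries. The means were 4685 ± 270.0 (SD, n = 3) and 4791 ± 3070 CPM (SD, n = 4), with a log2 fold change of 0.06 (SE 0.76) with a BH-adjusted p of 0.984 (edgeR quasi-likelihood).

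Postn (ENSMUSG00000027750, chromosome 3, 54361109 to 54391034) stood at 976, 2545 and 905 CPM in the wild-type tumours and at 2902, 183, 1096 and 2873 CPM in the Pak2-null primaries, with 530 CPM in tumour 14B. Tumours 13, 61 and 20 formed a high set that held both genotypes. The log2 fold change was 0.28 (SE 0.88) with a BH-adjusted p of 0.922 (edgeR quasi-likelihood), and leaving out 1 tumour moved it between -0.08 and 0.93.

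Spp1 (ENSMUSG00000029304, chromosome 5, 104435118 to 104441050) encodes osteopontin, an integrin and CD44 ligand made by macrophages, bone cells and many tumour cells. It had 1439 (tumour 19), 338 (20) and 314 CPM (127) among the wild-type tumours, and 2920, 169, 1595 and 262 CPM in tumours 13, 14A, 59 and 61, with 615 CPM in tumour 14B. Tumours 13, 59 and 19 were high and the other primaries low, whatever their genotype. The log2 fold change was 0.86 (SE 1.09) with a BH-adjusted p of 0.783 (edgeR quasi-likelihood), and was -0.02 without tumour 13 and 1.93 without tumour 19. The macrophage sum, led by the C1q genes, was highest in tumour 14A, the primary tumour with the lowest Spp1. Other markers of that list ran differently. Mrc1 was lowest in tumour 14A, at 48.8 CPM, and highest in tumours 13, 59 and 19, at 569, 545 and 383 CPM. Csf1r was also highest in tumours 13, 59 and 19, at 661, 610 and 510 CPM, and Mertk in tumours 59, 19 and 13, at 34.1, 28.6 and 27.1 CPM. Trem2 was instead highest in tumour 14A, at 186 CPM, and Cd163 in tumours 19 and 61, at 166 and 81.5 CPM. Gpnmb was lowest in tumour 13, at 1.42 CPM. These markers were picked after their values were seen. The part of macrophages in the Spp1 values was not tested. Bone cell markers summed to 221 to 1144 CPM over the 8 tumours. Their sum was highest in tumour 19 and nearly as high, at 1113 CPM, in tumour 61, where Spp1 was low. Tumour 13, with the highest Spp1, had 612 CPM. The sum in tumour 61 was mostly Ctsk and Acp5, at 651 and 425 CPM, beside 607 and 328 CPM in tumour 19. Alpl, Dlx5 and Runx2 stood at 75.5, 21.8 and 50.3 CPM in tumour 19 but at 6.99, 1.16 and 28.8 CPM in tumour 61. The sum therefore does not show equal bone cell content in these tumours.

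Tgfbi (ENSMUSG00000035493, chromosome 13, 56609603 to 56639339) encodes a TGF-beta-induced protein that links integrins to collagen. It had 687 (tumour 19), 243 (20) and 129 CPM (127) among the wild-type tumours and 766, 1052, 549 and 446 CPM in tumours 13, 14A, 59 and 61. Tumour 14B had 1077 CPM. Tumour 14A, the lowest primary for 8 members, was thus the highest primary for this one. Tumour 14B was the highest of all in CPM but not in TPM, where its 489 lay below the 735 of tumour 14A and the levels of tumours 13, 19 and 59. Tumour 19 lay within the Pak2-null range and tumours 20 and 127 below it. The means were 353 ± 295 (SD, n = 3) and 703 ± 268 CPM (SD, n = 4), a log2 fold change of 1.02 (SE 0.61) with a BH-adjusted p of 0.543 (edgeR quasi-likelihood). The value was 1.92 without tumour 19, the highest wild-type tumour, and 0.60 without tumour 127. Against tumour 19 alone, with 20 and 127 both left out, it was 0.09. Its adjusted p of 0.0685 by limma-voom with quality weights and BH adjustment was the lowest of any member in any alternative, and for Tgfbi the alternatives ranged from 0.0685 to 0.974, the highest with tumour 19 as the lone wild-type sample.

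Fbln1 and Mfap4 belong to elastic and basement membrane networks. Fbln1 (ENSMUSG00000006369, chromosome 15, 85205949 to 85286535) had 298 (tumour 19), 188 (20) and 283 CPM (127) among the wild-type tumours and 59.0, 12.2, 566 and 275 CPM in tumours 13, 14A, 59 and 61, with 20.0 CPM in tumour 14B. Tumours 13 and 14A were below every wild-type tumour and tumour 59 above. The log2 fold change was -0.15 (SE 1.05) with a BH-adjusted p of 0.968 (edgeR quasi-likelihood), and leaving out 1 tumour moved it between -1.15 and 0.25.

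Mfap4 (ENSMUSG00000042436, chromosome 11, 61485431 to 61488900), which encodes a microfibril protein bound to elastin, stood at 112, 279 and 217 CPM in the wild-type tumours and at 9.16, 7.30, 69.1 and 98.5 CPM in the Pak2-null primaries. Tumour 14B had 5.08 CPM, the lowest of all. Every wild-type tumour was above every Pak2-null tumour, though tumours 19 and 61 lay close together, and tumours 13 and 14A were far below. The means were 203 ± 84.4 (SD, n = 3) and 46.0 ± 45.3 CPM (SD, n = 4), a log2 fold change of -2.12 (SE 0.93) with a BH-adjusted p of 0.396 (edgeR quasi-likelihood). Leaving out 1 tumour moved the log2 fold change between -2.80 and -1.77. The summed skeletal muscle markers were also higher in each wild-type tumour than in each Pak2-null primary, and their part in the Mfap4 values was not tested. Without the muscle-rich tumours 20 and 127 tumour 19 is the only wild-type sample, and the log2 fold change against it was -1.24 (SE 1.44, with that lone sample assumed to vary like the other group). The exons of Mfap4 overlap those of Mapk7 on the opposite strand (26.7 to 49.6 CPM), and the strand setting of the counting is not given in the sources used here.

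**Figure D4:**
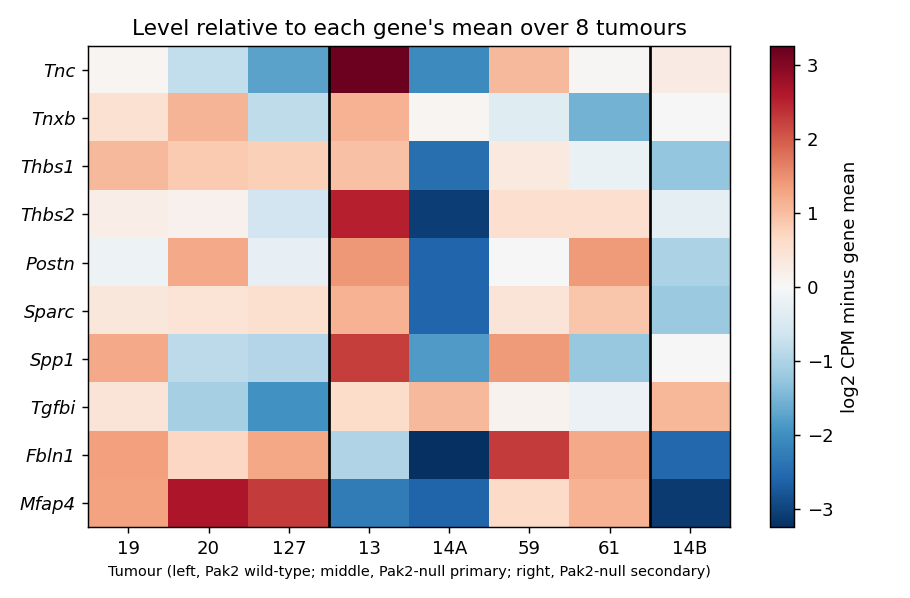
Log2 CPM of each member minus its mean over the 8 tumours, red above and blue below, with lines between wild-type, Pak2-null primary and secondary tumours. Tumour 13 is red for Tnc, Thbs2 and Spp1 and blue for Fbln1 and Mfap4, tumour 14A is blue for 8 of 10 members, and tumours 14A and 14B are both red for Tgfbi.

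Tumour 13 thus held the extremes of both kinds: the highest Tnc, Thbs2 and Spp1 and, apart from tumours 14A and 14B, the lowest Fbln1 and Mfap4. It also had the highest Fn1 (fibronectin), at 39431 CPM against 1494 to 6214 CPM elsewhere, and the fewest skeletal muscle transcripts. Between tumours 14B and 14A the differences depended on the scale. CPM was scaled by the tested genes with TMM factors and TPM by all genes, so the change of scale shifted every member alike between the 2 tumours. The exocrine pancreas sum, mostly of genes left out of the CPM scaling, also differed between them, at 257234 and 35660 CPM. For Tgfbi, Tnxb, Mfap4 and Fbln1 the 14B minus 14A differences in log2 CPM were 0.03, -0.06, -0.51 and 0.71, and in log2 TPM -0.59, -0.68, -1.14 and 0.09. Tumour 14B was higher on both scales for Thbs2, Tnc, Spp1, Postn, Sparc and Thbs1, by 2.76, 2.35, 1.86, 1.53, 1.38 and 1.18 in log2 CPM and by 2.14, 1.73, 1.24, 0.91, 0.76 and 0.56 in log2 TPM. With a single secondary tumour these differences have no replicate check.

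Sparc stayed close to the fibrillar matrix transcripts of the same tumour. When the mean log2 CPM of the 17 fibrillar matrix genes was subtracted, a step added after the data were seen, the standard deviation of Sparc over the 7 primaries went from 1.25 to 0.19, and Sparc stood 1.71 to 2.23 above the matrix mean in each of them. Most of that starting spread came from tumour 14A: without it the standard deviation of Sparc went from 0.32 to 0.12. For the other members the step had less effect or turned around without tumour 14A. Thbs1 went from 1.24 to 0.60 with tumour 14A but from 0.48 to 0.65 without it. Postn went from 1.42 to 0.62 with it and from 0.82 to 0.66 without, and Thbs2 from 1.68 to 0.85 and from 1.06 to 0.86. Tgfbi went from 1.05 up to 1.80 with it and from 0.99 to 0.94 without, and Tnxb from 1.0006 to 1.51 and from 1.10 to 1.16. On this scale Thbs1 had -0.22, -0.61 and -0.74 in the wild-type tumours 19, 20 and 127 against -1.07, -1.28, -1.30 and -2.09 in tumours 13, 14A, 59 and 61. Mfap4 stood at -3.08, -1.96 and -2.37 against -7.44, -4.57, -4.13 and -3.87. These 2 of 10 members had groups that did not overlap, beside 5.76% of all tested genes outside the matrix list.

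**Figure D5:**
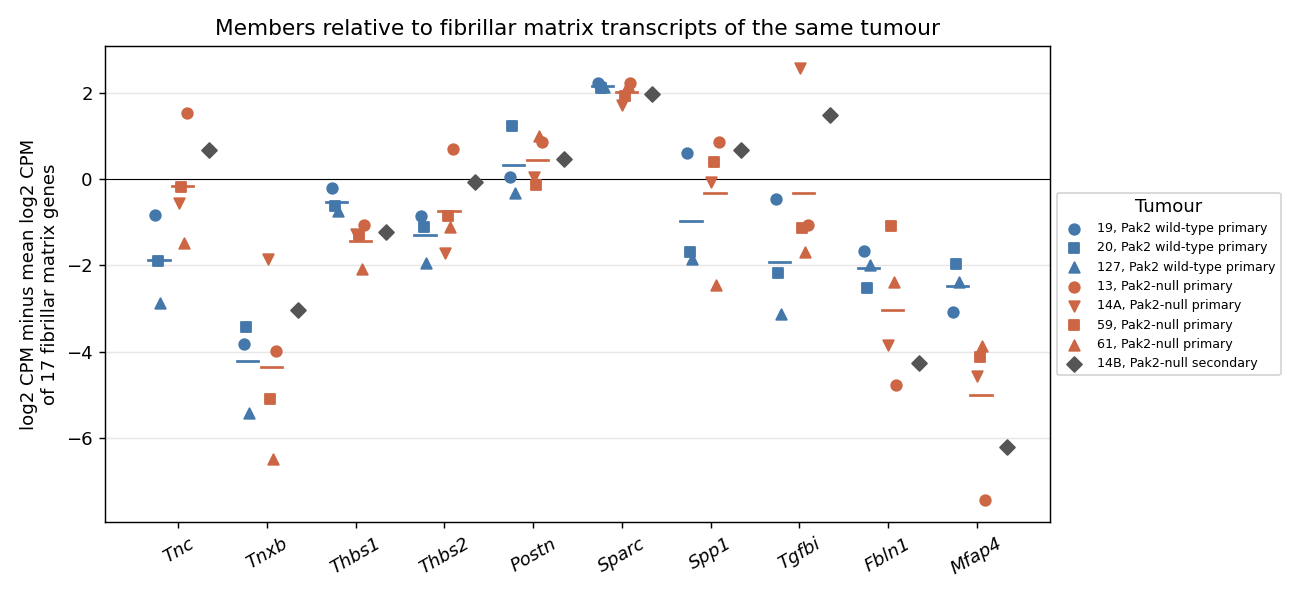
Log2 CPM of each member minus the mean log2 CPM of 17 fibrillar matrix genes in the same tumour, with a bar for each primary group's mean. Sparc lies within 1.71 to 2.23 in the 7 primary tumours, Thbs1 and Mfap4 are lower in each Pak2-null primary than in each wild-type tumour, and Tgfbi is highest in tumour 14A.

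Related matricellular genes outside the 10 were 25 tested of 29 listed, among them other thrombospondins, fibulins and the CCN family. By edgeR 0 of 25 passed after BH adjustment and 6 of 25, all lower, had an unadjusted p under 0.05, beside 12.9% of all genes. After BH adjustment limma-voom called 0 and DESeq2 called 2 of 25, Comp and Spock2, both lower. That DESeq2 count was near its share over all genes, 7.71%. Fitted means were higher for 9 and lower for 16, with a median log2 fold change of -1.06. The lowest p belonged to Comp, which encodes a cartilage and tendon thrombospondin, at 68.3 ± 66.5 against 5.59 ± 3.37 CPM, followed by Smoc1 (82.2 ± 109 against 3.35 ± 2.32 CPM) and Spock2 (26.4 ± 13.7 against 5.41 ± 3.04 CPM; SD of 3 and 4 tumours). Their log2 fold changes were -3.58 (SE 0.82), -4.59 (SE 1.27) and -2.27 (SE 0.63), with adjusted p from 0.125 to 0.176 (edgeR quasi-likelihood). Tendon markers, led by Scx and Fmod, summed to 165, 604 and 1052 CPM in the wild-type tumours and 47.2 to 137 CPM in the Pak2-null primaries. By edgeR or limma-voom 0 of 6 passed, and 2 of 6, Scx and Fmod, were lower by DESeq2, beside 7.71% of all genes. The part of tendon tissue in the Comp values was not tested. Fbln2, a paralogue of Fbln1, stood at 5329 CPM in tumour 13 and 142 to 1126 CPM elsewhere, and Fstl1, of the Sparc family, at 7060 CPM in tumour 13 and 337 to 2243 CPM elsewhere; both were named after their values were seen.

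Among 20 receptors of these proteins 0 passed by edgeR or limma-voom. DESeq2 called Cd44 and Itga5 higher and Itga8 and Itgb6 lower after BH adjustment, beside 7.71% of all genes. By edgeR 4 higher and 2 lower receptors had an unadjusted p under 0.05, beside 12.9% of all genes. Fitted means were higher for 13 and lower for 7, with a median log2 fold change of 0.50. Itga8, the alpha subunit of a receptor for osteopontin and tenascin C, stood at 19.8 ± 21.2 and 1.14 ± 0.836 CPM, and Itgb6, of the epithelial integrin that activates TGF-beta, at 10.6 ± 7.49 and 0.316 ± 0.485 CPM (SD of 3 and 4 tumours). Cd44, the osteopontin and hyaluronan receptor, stood at 140 ± 29.2 and 451 ± 265 CPM. Log2 fold changes were -4.09 (SE 0.91), -5.02 (SE 1.34) and 1.71 (SE 0.50), with adjusted p of 0.123, 0.159 and 0.190 (edgeR quasi-likelihood, BH). Of 18 genes of TGF-beta production and signalling 0 passed by edgeR or limma-voom and Tgfb2 alone, lower, by DESeq2, beside 7.71% of all genes. Fitted means were higher for 12 and lower for 6, with a median log2 fold change of 0.38. At unadjusted p under 0.05 there was 1 by edgeR, beside 12.9% of all genes. Tgfb2 had the lowest p there, at 58.3 ± 44.8 against 10.4 ± 5.84 CPM, with a BH-adjusted p of 0.164 (edgeR), followed by Tgfb1 (149 ± 24.6 against 264 ± 113 CPM) and Tgfb3 (348 ± 195 against 109 ± 77.6 CPM).

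Fibrillar matrix genes had 0 of 17 passing by edgeR, DESeq2 or limma-voom after BH adjustment, 0 at unadjusted p under 0.05 by edgeR and a median log2 fold change of 0.03, with Fn1, Loxl2 and Fbn1 at the lowest p (log2 fold changes 2.04, 1.79 and 1.15). By edgeR and by limma-voom 0 genes passed among fibroblast (11 tested, median -0.79), macrophage (11, 0.81), endothelial (8, -0.39), skeletal muscle (12, -5.98), mesothelial (8, -0.52), platelet (5, -0.34) and bone cell markers (5, 0.02). Among the lists added later 0 of 3 exocrine pancreas and 0 of 9 lymphocyte genes passed, with medians of 9.56 and 1.53. All 12 skeletal muscle markers had lower fitted means in the Pak2-null tumours at an unadjusted p under 0.05 by edgeR, led by Des and Ttn, and all 12 passed by DESeq2 after BH adjustment. DESeq2, which called 7.71% of all genes, also called Dpep1 and Alpl lower. The lowest p in the other lists belonged to Dpep1 and Pi16 (fibroblast), C1qa and C1qc (macrophage), Tek and Tie1 (endothelial), Krt19 and Msln (mesothelial), Scx and Fmod (tendon), Ppbp and Pf4 (platelet) and Alpl and Dlx5 (bone).

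For each member the genes of most similar pattern were sought among 10383 tested genes whose log2 CPM averaged 3 or more, by Pearson's r of log2 CPM over the 8 tumours. These values are descriptions over points that include the pair 14A and 14B, and r without that pair is given with n = 6. The gene most like Sparc was Lzts2 (r = 0.996, Spearman's rho = 1.0, and r = 0.98 without the pair), and most like Thbs1 was Eri3 (0.995, rho 0.93, and 0.98). Tgfbi was closest to Rab5c (0.998, rho 0.98, and 0.997 without the pair) and Thbs2 to Pxdn (0.988, rho 0.95, and 0.97). Mfap4 was closest to Nkd2 (0.988, rho 1.0, and 0.97), with the muscle myosin gene Myh4 second (0.985, rho 0.93, and 0.99). Tnc was closest to Dip2a (0.98, rho 0.88, and 0.995), with the matrix gene Hmcn1 also close (0.98, rho 0.98, and 0.98). Postn was closest to Sap30l (0.97, rho 0.98, and 0.94) and Spp1 to Paics (0.97, rho 0.90, and 0.96). Fbln1 was closest to Tle1 (0.98, rho 0.88, and 0.93) and Tnxb to Tnfrsf11b (0.93, rho 0.93, and 0.97).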

How the data were processed

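The authors deposited a table of raw read counts per gene, 1 column per tumour, on GRCm38 (mm10), and the submitters' processing notes name STAR and HTSeq. Not given in the sources used here are versions, annotation release, strand setting and filters. Per the file header the table also holds gene lengths. It has 0 columns of other samples. No tumours were copies of each other (mean chi-square per gene at least 90.3).

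For the 7 primary tumours edgeR 4.0.16 was run under R 4.3.3 (TMM, filterByExpr with minimum count 10 and total 15, quasi-likelihood test, Benjamini-Hochberg adjustment at 0.05 over 15412 genes). Tumour 14B was described without a test. CPM used library sizes over the tested genes with TMM factors over all 8 tumours, for untested genes too, and log2 CPM a prior count of 2. TPM was scaled over all genes of the table. Each SE was derived as the absolute log2 fold change over the root of its F statistic. A count of 0 allows up to 3 counts, 0.139 to 0.311 CPM, for counting error only. Alternatives used DESeq2 1.42.0 and limma 3.58.1.

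The members and lists were chosen with earlier results of these data known. Every member is named, with up to 3 genes of lowest p per pathway list and up to 2 per marker list, and up to 3 most similar genes per member. Some genes called by DESeq2 alone are named too. Other genes of these lists, among them most macrophage, mesothelial and bone cell markers given singly, were named outside this rule with their values seen. Adgre1 was not found by name. Promoters are RefSeq's (GRCm38.p6), at the start nearest the deposited 5′ end; Thbs1 and Mfap4 had no entry.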

Additional observations from a re-analysis of the deposited data

How the results depend on the processing

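By the test at 0.05, 0 members passed in any of 17 alternatives, with the lowest adjusted p at 0.0685 (Tgfbi, limma-voom with quality weights, Benjamini-Hochberg adjustment). Of 170 recomputed member values 156 kept their direction and 14 did not, and Tnc, Thbs1, Thbs2, Tgfbi and Mfap4 kept it in all 17. By limma-voom Postn and Sparc were at -0.17 and -0.44, and by limma-voom with quality weights Postn and Fbln1 were at -0.14 and 0.38. Leaving out muscle-rich tumours 20 and 127, an alternative chosen after seeing the data, left tumour 19, the highest wild-type tumour for Spp1, as the lone wild-type sample, assumed to vary like the other group, and gave Spp1 at -0.16. Leaving out 1 tumour at a time gave ranges of -0.081 to 0.93 (Postn), -0.26 to 0.42 (Sparc), -0.021 to 1.93 (Spp1), -1.15 to 0.25 (Fbln1) and -0.93 to 0.15 (Tnxb). Genes called numbered 11 in the comparison as reported, 20 with the stricter filter, 4 with the robust fit or with 14B as a group of its own, 1149 by DESeq2, 25 by limma-voom, 950 with quality weights, 0 without tumours 20 and 127, and 0 to 59 leaving out 1 tumour (59 without tumour 19, 1 without 127, 8 without 14A, 0 without 20, 13, 59 or 61). The cause was not tested. No paired analysis was possible because the groups share no replicate numbers. With 3 and 4 tumours and the spread seen, SEs of 0.61 to 1.19 limit what could be called.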
